A study of Homo sapiens with 12 samples.

Results

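The genes described here are EWSR1 and 9 transcription factors of the ETS family (FLI1, ERG, ETS1, ETS2, ETV1, ETV4, ETV5, ELK3 and ELF3), 10 of the 58721 genes in the count table, taken by symbol from a list drawn up with earlier results of these data known. They were followed by RNA-seq in EW8 and TC71, cell lines derived from Ewing sarcoma, a bone and soft tissue tumor. The lines of all 4 groups carried lentiviral transgenes that make c-Jun and c-Fos together from the doxycycline-responsive TRE3G promoter, with the transactivator driven by the EF1a promoter, and were drug-selected with no cloning described. The libraries labelled WT had the vehicle DMSO for 72 h, and the libraries labelled AP1_overexpression had doxycycline at 2000 ng/ml for 72 h, with 3 libraries in each of EW8 vehicle, EW8 doxycycline, TC71 vehicle and TC71 doxycycline. Cells with doxycycline but without the transgenes were not analysed here, so the drug and the induced proteins cannot be told apart, and nothing in the labels says that the 3 libraries of a group came from separate cultures, so p-values measure the spread between these libraries.

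ETS factors share a winged helix domain that binds DNA at a GGAA core, and members compete for and cooperate at the same sites, often beside AP-1 sites. In Ewing sarcoma a translocation joins the start of EWSR1, which encodes an RNA-binding protein of the FET family, to the DNA-binding end of an ETS gene, most often FLI1. The resulting EWS-FLI1 activates genes at GGAA repeats and lowers others, in part where it displaces resident ETS factors. Both lines carry EWS-FLI1, and counts per gene cannot separate reads of the fusion from reads of intact FLI1 or EWSR1.

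Libraries held between 42860665 and 60853649 counts, and levels are given as CPM, the count of a gene scaled to a library of common size. The induced genes followed their labels: JUN stood at 19.8 to 24.6 CPM in EW8 vehicle and at 422 to 504 in EW8 doxycycline, and at 18.04 to 25.3 and 705 to 814 in TC71. FOS stood at 35.9 to 37.6 CPM and 999 to 1139 in EW8, and at 11.2 to 12.1 and 1450 to 1686 in TC71. All 8 Ewing sarcoma markers examined were above 6 counts in every library, though with doxycycline 6 fell and 1 rose in EW8, and 5 fell and 2 rose in TC71. Of all genes tested 22% fell and 21.9% rose in EW8, and 20.4% fell and 25.1% rose in TC71. Most of these markers are counted again below among the genes that EWS-FLI1 is known to activate. TC71 vehicle replicate 1 stood apart from its group, with a chi-square per gene of 65.0 and 62.5 against the other TC71 vehicle libraries, where the remaining pairs of replicates gave 5.38 to 11.1, and results that rest on it are given with and without it.

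ETS1, ERG, ETS2 and ELK3 rose with doxycycline in both lines, while FLI1 passed the test in neither. ETS1 went from no more than 2 counts per library to between 166 and 1170, and ETV1 fell in both lines. Per kilobase of annotated exon, ETS2 and ELK3 became the most abundant of the members in EW8, though by CPM EWSR1 still lay above ELK3. Of the 9 members with enough counts to test, 5 rose in EW8 (ERG, ETS1, ETS2, ETV4 and ELK3) and 1 fell (ETV1), where 21.9% of all 21013 genes tested rose and 22% fell at an adjusted p below 0.05 by edgeR's quasi-likelihood test. In TC71 4 rose (ERG, ETS1, ETS2 and ELK3) and 3 fell (EWSR1, ETV1 and ETV5), where 25.1% of all genes rose and 20.4% fell. With a log2 fold change beyond 1 required as well, EW8 kept 5 higher and 1 lower (11.4% and 3.38% of all genes) and TC71 kept 4 higher and 0 lower (12.3% and 3.67%). The median log2 fold change of the tested members was 1.95 in EW8 and 0.40 in TC71, against −0.031 and 0 over all genes tested. With genes at or under 6 counts with vehicle set at their lower bound, the EW8 median was 0.99. Both the 0.99 and the 0.40 are the value of ETV4, a gene with few counts (0.40 ± 0.70 in TC71, adjusted p = 0.692, edgeR). The members that passed the filter on low counts include genes that passed only through their level after doxycycline. With vehicle, ETS1 in both lines, ERG in TC71 and ETV4 in EW8 were at or under 6 counts, and ERG in EW8 exceeded that in replicate 3 alone. Genes that start there could be called only higher, so their rises cannot be weighed against the share of all genes. ETS2 and ELK3, the other members that rose, were well above 6 counts in every library. A tested member that did not pass is not shown to be unchanged. In bulk RNA, a change in how many cells make a transcript and a change in how much each cell makes cannot be told apart.

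**Figure D1:**
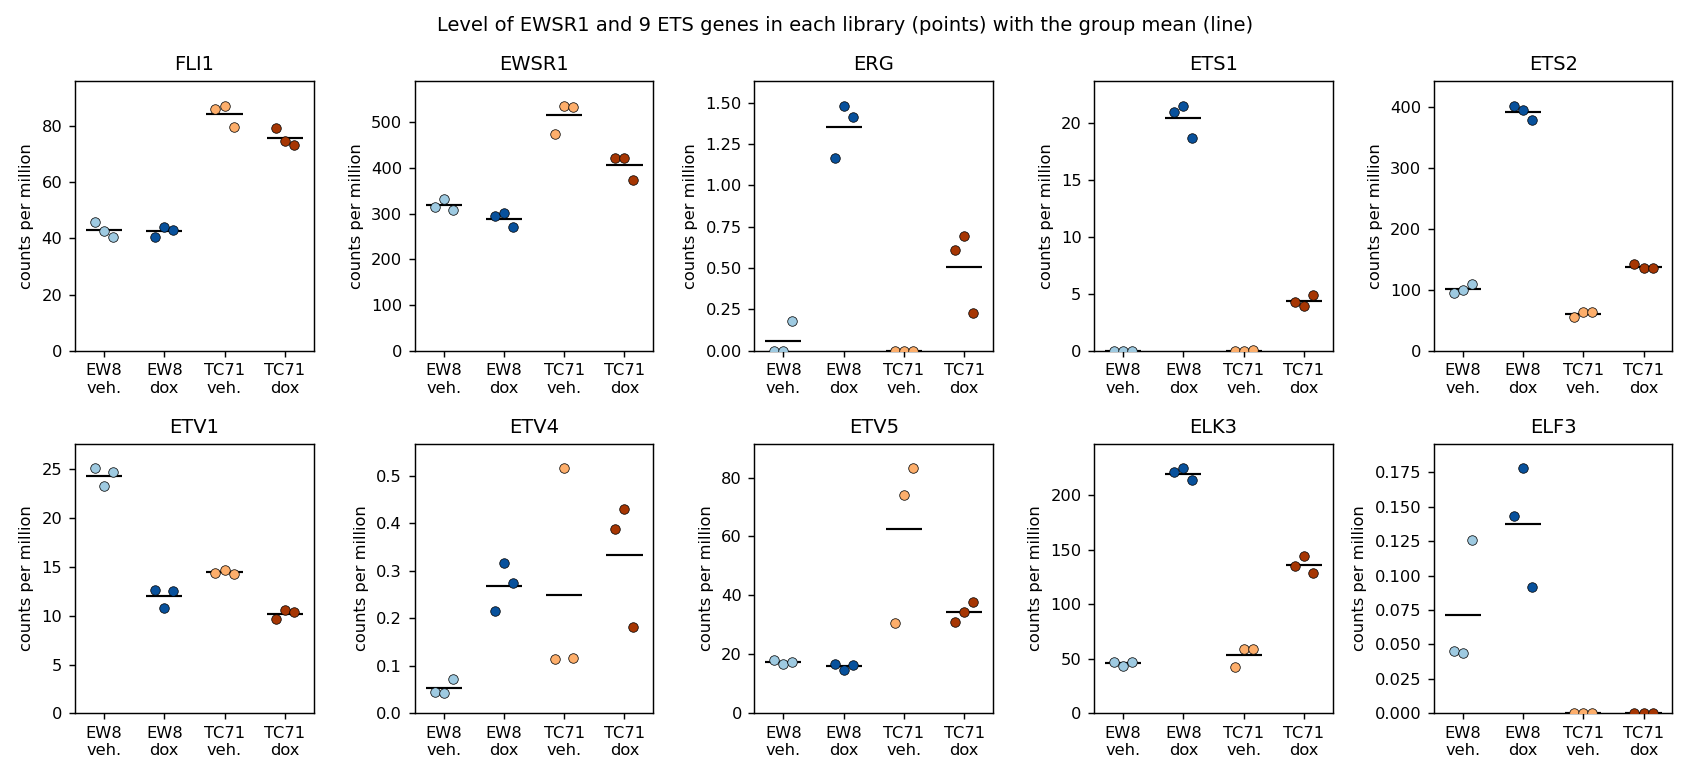
CPM (linear axis from 0, a separate scale for each gene) of EWSR1 and the 9 ETS genes in each of the 12 libraries, as points, with the mean of each group of 3 as a line. ETS1, ERG, ETS2 and ELK3 are higher with doxycycline in both lines, FLI1 overlaps between conditions in EW8, and ETV5 in TC71 vehicle is spread from 30.8 to 83.1 CPM.

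FLI1 (ENSG00000151702.16, plus strand, chr11:128686535-128813267, GRCh38 as in the deposited table) contributes the DNA-binding end of the fusion. In EW8 it stood at 45.7, 42.7 and 40.3 CPM with vehicle and at 40.7, 43.9 and 42.98 CPM with doxycycline. The conditions overlapped, and the log2 fold change was −0.012 ± 0.068 (SE, n = 3 per group; adjusted p = 0.912, edgeR). In TC71 it stood at 86.2, 87.3 and 79.5 CPM with vehicle and at 79.5, 74.7 and 73.4 CPM with doxycycline, so the lowest vehicle and the highest doxycycline library almost met. The difference of −0.15 ± 0.07 did not pass (adjusted p = 0.0707, edgeR), but FLI1 was lower with doxycycline in all 20 alternative analyses (−0.25 to −0.13) and 11 of them passed. Among those were the analyses without TC71 vehicle replicate 1 (−0.22, adjusted p = 0.0132) or 3 (−0.24, adjusted p = 0.0165), without EW8 vehicle replicate 3 (−0.21) and without EW8 doxycycline replicate 1, 2 or 3 (−0.21 each). The alternatives reuse the same TC71 libraries and are not separate tests. Leaving out an EW8 library does not touch the TC71 counts and acts only through the shared filter, scaling and spread. The test of the difference between the lines' responses gave −0.14 ± 0.10 (adjusted p = 0.356, edgeR).

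EWSR1 (ENSG00000182944.17, plus strand, chr22:29268009-29300525) supplies the promoter and the activating end of the fusion and is also transcribed from its intact copy. It stood at 314, 333 and 307 CPM in EW8 vehicle and at 296, 302 and 271 CPM in EW8 doxycycline. Every doxycycline library lay below every vehicle library, by a log2 of −0.14 ± 0.06 that did not pass (adjusted p = 0.0954, edgeR). In TC71 EWSR1 fell from 475, 537 and 534 CPM to 421, 422 and 375 CPM, a log2 fold change of −0.34 ± 0.06 (adjusted p = 2.05e-04, edgeR). The difference between lines was −0.21 ± 0.09 (adjusted p = 0.126), and passed without TC71 vehicle replicate 1 (−0.39, adjusted p = 2.88e-04) or EW8 doxycycline replicate 3 (−0.35, adjusted p = 0.0284). TAF15, which like EWSR1 encodes an RNA-binding protein of the FET family, fell in both lines, with log2 fold changes of −0.46 in EW8 and −0.45 in TC71.

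ETS1 and FLI1 lie as a head-to-head pair on chromosome 11, 98976 bases apart with no annotated gene between them in the deposited table. ETS1 (ENSG00000134954.14, minus strand, chr11:128458761-128587558), a factor of lymphoid and endothelial cells that partners AP-1 at matrix protease genes, had 0, 0 and 0 counts in EW8 vehicle and 1170, 1090 and 820 counts in EW8 doxycycline. In TC71 it had 0, 0 and 2 counts with vehicle and 178, 166 and 216 with doxycycline. These levels were 20.9, 21.5 and 18.7 CPM in EW8 and 4.31, 3.97 and 4.91 CPM in TC71. Vehicle was at or under 6 counts (3 read pairs, since both mates of a pair were counted), taken as the detection floor of each library, so ETS1 was at least 151-fold higher with doxycycline in EW8 and at least 37.8-fold higher in TC71 (adjusted p = 6.97e-13 and 3.97e-11, edgeR). With doxycycline the TC71 level of ETS1 lay below that of EW8 (log2 difference −2.21 ± 0.18, adjusted p = 2.10e-08), while JUN and FOS were higher in TC71, by 0.67 and 0.55.

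ERG and ETS2 form the same kind of pair on chromosome 21, 143.5 kb apart with LINC00114 between them, and both rose. ERG (ENSG00000157554.18, minus strand, chr21:38380027-38661780) is the FLI1 paralog that maintains endothelial cells and replaces FLI1 in some Ewing fusions. It had 0, 0 and 10 counts in EW8 vehicle and 65, 75 and 62 in EW8 doxycycline, and 0, 0 and 0 in TC71 vehicle and 25, 29 and 10 in TC71 doxycycline. ERG thus rose from near nothing to 1.16, 1.48 and 1.42 CPM in EW8, with a fitted log2 change of 4.32 ± 0.88 (adjusted p = 7.34e-04, edgeR). That value turned on the 10 counts of EW8 vehicle replicate 3: without it, vehicle was at 0 and the fitted value, 9.06, had no meaning as a size. In TC71 ERG was at least 4.37-fold higher with doxycycline (adjusted p = 3.49e-04, edgeR), and per length it was still the least abundant of the members that rose.

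Markers of other cell types were examined as well. Of 7 endothelial markers, the cell type in which ERG and ETS1 are best known, 5 of 7 tested rose in EW8 and 5 of 6 in TC71, none fell, and their summed level went from 7.90 to 9.37 CPM up to 61.7 to 68.3 in EW8 and from 2.25 to 2.83 up to 71.4 to 72.6 in TC71. In TC71 doxycycline most of it was TIE1 (59.6 to 60.7 CPM), while TEK had 2, 2 and 2 counts and CDH5 4, 10 and 8. TIE1, TEK and PECAM1 were at 0 in all 3 TC71 vehicle libraries. Of 7 epithelial markers 5 were tested in each line, and 4 rose in EW8 and 2 in TC71. Of 7 blood markers 2 of 6 tested rose and 2 fell in EW8, and 2 of 4 tested rose in TC71. Over all genes 21.9% rose in EW8 and 25.1% in TC71. Endothelial TIE1 and VWF were at or under 6 counts with vehicle in both lines, as were PECAM1 and CDH5 in TC71. Epithelial ESRP1 in EW8 and the blood marker ITGAM in TC71 were at that floor too. Genes that start there could be called only higher. The part of other cell types in these results was not tested.

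ETS2 (ENSG00000157557.11, plus strand, chr21:38805307-38824955) is a broadly expressed factor activated by MAP kinase signals. It rose from 94.3, 99.6 and 110 CPM to 402, 394 and 379 CPM in EW8, which is a log2 change of 1.95 ± 0.06 (adjusted p = 2.83e-14, edgeR). In TC71 it rose from 55.6, 63.1 and 62.9 CPM to 141, 136 and 136 CPM, or 1.19 ± 0.06 (adjusted p = 2.74e-11). The groups did not overlap in either line, and the rise was smaller in TC71 (log2 difference −0.77 ± 0.09, adjusted p = 5.68e-06).

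ELK3 (ENSG00000111145.7, plus strand, chr12:96194382-96269835) is a ternary complex factor, one of the ETS proteins that bind with serum response factor at promoters such as that of FOS, and represses until phosphorylated. It rose from 46.9, 43.5 and 47.1 CPM to 221, 224 and 214 CPM in EW8, which is a log2 change of 2.26 ± 0.10 (adjusted p = 9.72e-13, edgeR). In TC71 it rose from 42.4, 58.8 and 58.6 CPM to 135, 144 and 128 CPM, or 1.35 ± 0.09 (adjusted p = 9.68e-10). Its rise too was smaller in TC71 (log2 difference −0.91 ± 0.13, adjusted p = 5.78e-05). Over the alternative analyses the rise in TC71 ranged from 1.13 to 1.43 and the difference from −1.18 to −0.84. Both were lowest without TC71 vehicle replicate 1.

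**Figure D2:**
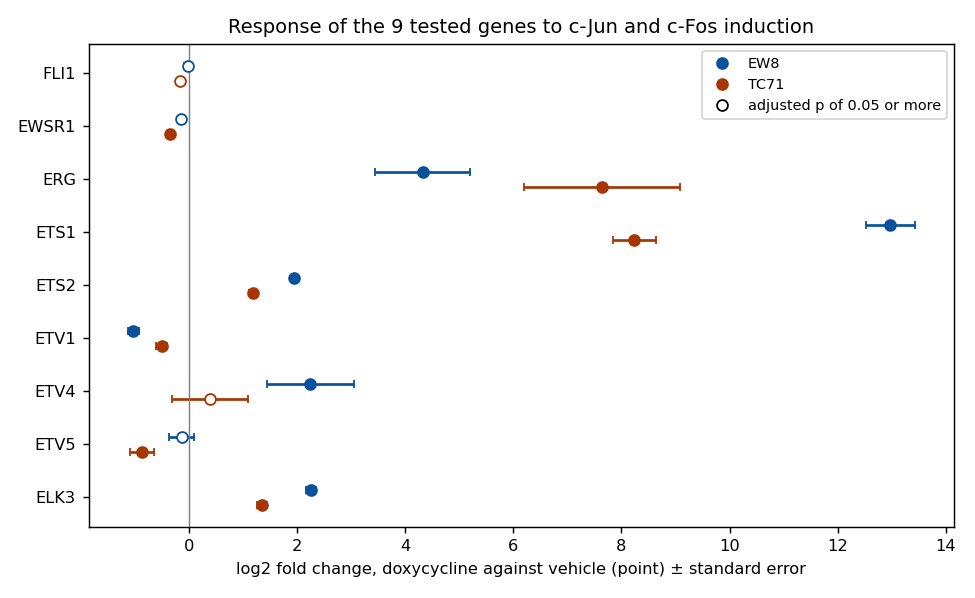
Log2 fold change of doxycycline against vehicle with its standard error for the 9 tested members in EW8 (blue) and TC71 (brown), open where the adjusted p was 0.05 or more. ETS2 and ELK3 lie further right in EW8 (1.95 and 2.26) than in TC71 (1.19 and 1.35); the positions of ETS1, of ERG in TC71 and of ETV4 in EW8 are fitted against vehicle libraries at or under 6 counts and are not sizes.

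The PEA3 group, ETV1, ETV4 and ETV5, are targets of receptor tyrosine kinase and MAP kinase signalling, and ETV1 and ETV4 are rare fusion partners of EWSR1. ETV1 (ENSG00000006468.13, minus strand, chr7:13891228-13991425) fell from 25.1, 23.3 and 24.7 CPM to 12.7, 10.8 and 12.6 CPM in EW8, which is a log2 change of −1.02 ± 0.10 (adjusted p = 1.27e-07, edgeR). In TC71 it fell from 14.4, 14.7 and 14.3 CPM to 9.70, 10.6 and 10.4 CPM, or −0.50 ± 0.10 (adjusted p = 4.83e-04). The lines differed by 0.52 ± 0.14 (adjusted p = 0.0137), a call lost without EW8 vehicle replicate 3, without any 1 of the EW8 doxycycline libraries, and without TC71 vehicle replicate 1 or 3 (0.35 to 0.46, adjusted p = 0.0547 to 0.141).

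ETV5 (ENSG00000244405.7, minus strand, chr3:186046308-186110318) stood at 18.04, 16.6 and 17.5 CPM in EW8 vehicle and at 16.6, 14.6 and 16.6 CPM in EW8 doxycycline, and the difference did not pass (−0.13 ± 0.23, adjusted p = 0.709, edgeR). In TC71 it fell from 30.8, 74.1 and 83.1 CPM to 30.9, 34.6 and 37.9 CPM, or −0.86 ± 0.22 (adjusted p = 0.00378). The low vehicle value is that of replicate 1, which lies within the doxycycline group. Without that library the log2 fold change was −1.27 (adjusted p = 3.86e-12), and the difference between lines, −0.74 ± 0.32 with all libraries (adjusted p = 0.128), became −1.19 (adjusted p = 4.50e-08).

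ETV4 (ENSG00000175832.12, minus strand, chr17:43527844-43579620) was near the detection floor throughout. It had 2, 2 and 4 counts in EW8 vehicle and 12, 16 and 12 in EW8 doxycycline, at least 1.98-fold higher (adjusted p = 0.0312, edgeR), a call lost in 6 of 18 alternatives, with adjusted p up to 0.0945; 5 of the 6 left out 1 EW8 library (any but doxycycline replicate 1). In TC71 it had 6, 32 and 6 counts with vehicle and 16, 18 and 8 with doxycycline, which overlapped (0.40 ± 0.70, adjusted p = 0.692; −0.017 without vehicle replicate 1 and 1.51, adjusted p = 0.171, without vehicle replicate 2). ELF3 (ENSG00000163435.15, plus strand, chr1:202007945-202017188), an epithelial ETS factor, had 2, 2 and 7 counts in EW8 vehicle, 8, 9 and 4 in EW8 doxycycline and 0 in all 6 TC71 libraries, and was too low to be tested. A count of 0 allows up to 6 counts, or 0.0966 to 0.145 CPM in the TC71 libraries.

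Promoter windows from RefSeq (GRCh38.p14, 250 bases before to 50 after a start site) were matched by symbol for 6 of the 10 members (EWSR1, ERG, ETS2, ETV1, ELK3 and ELF3) and not for FLI1, ETS1, ETV4 and ETV5. They were searched on both strands for TGANTCA (AP-1), for GGAAGGAA (tandem ETS cores) and for CCGGAA (an ETS core with its preferred flank). The stretches shown are of the 3 members that rose in both lines and have a window, with the 100 bases just before the first start listed, and of ETV1, which fell and was the one member with any match, with bases −220 to −121. Capitals mark a match.
ETS2, chr21:38805083-38805182, plus strand: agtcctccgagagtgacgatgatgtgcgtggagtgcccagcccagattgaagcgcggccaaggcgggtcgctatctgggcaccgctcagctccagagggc
ELK3, chr12:96194275-96194374, plus strand: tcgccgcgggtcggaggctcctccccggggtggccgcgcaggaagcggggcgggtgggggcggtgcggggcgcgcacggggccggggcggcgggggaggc
ERG, chr21:38660668-38660767, minus strand: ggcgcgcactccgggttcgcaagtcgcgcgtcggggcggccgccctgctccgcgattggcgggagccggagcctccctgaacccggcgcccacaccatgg
ETV1, chr7:13990823-13990922, minus strand: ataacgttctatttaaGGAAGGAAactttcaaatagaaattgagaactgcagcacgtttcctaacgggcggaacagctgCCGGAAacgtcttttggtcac
TGANTCA was in 0 of the 16 windows of the 6 members, and in 7.709% of all 35116 windows. ETV1 alone of the 6 held GGAAGGAA (at −204 in the window shown) and CCGGAA (at −141). It has several windows, some of them overlapping, and they made up the 2 and 3 of the 16 windows with these matches. The shares over all windows were 3.674% and 17.249%. Of the other ETS genes 17 had a window, 25 windows in all, and TGANTCA was in 1 of these, of ELF4 at −121, one of the genes that rose. A match or its lack describes these letters in this window and says nothing of binding, and sites outside it were not searched.

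Levels were set against each other per length, as CPM per kilobase of exon (RPKM). The length is that of all annotated exons of a gene (10326 bases for EWSR1, 4648 for ELK3 and 4595 for ETS2), not of the transcripts made. The order of the genes and the level of 1 gene as a percentage of others depend on these lengths. By CPM, EWSR1 (mean 289) lay above ELK3 (220) in EW8 doxycycline. In EW8 vehicle the order was EWSR1 (29.8 to 32.2 RPKM), ETS2 (20.5 to 23.9), ELK3 (9.36 to 10.1), FLI1 (4.93 to 5.59), ETV5 (2.87 to 3.11) and ETV1 (2.42 to 2.61), with no overlap between neighbours. In EW8 doxycycline ETS2 (82.4 to 87.4 RPKM) and ELK3 (46.0 to 48.3) stood above EWSR1 (26.2 to 29.2), FLI1 followed (4.98 to 5.38), and ETS1 (2.62 to 3.01) and ETV5 (2.52 to 2.86) overlapped. In TC71 vehicle EWSR1 led (46.0 to 52.0 RPKM), and ETS2 (12.1 to 13.7) lay above FLI1 (9.73 to 10.7) without overlap. ELK3 (9.13 to 12.7) and ETV5 (5.31 to 14.3) overlapped both. In TC71 doxycycline EWSR1 still led (36.3 to 40.9 RPKM), ETS2 (29.6 to 30.8) and ELK3 (27.6 to 31.0) overlapped, and FLI1 (8.98 to 9.72) came next.

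The levels of all 28 ETS genes of the table were also summed, and FLI1 was set against that sum. These are levels of RNA, with fusion and intact FLI1 together, and do not measure protein or which factors share sites. Their summed level was 174 to 188 RPKM with vehicle and 281 to 303 with doxycycline in EW8. In TC71 it was 192 to 213 RPKM with vehicle and 214 to 225 with doxycycline. The mean rise of the 2 lines was 62.7 RPKM (112 in EW8 and 13.5 in TC71, the latter 6.49 without TC71 vehicle replicate 1), with an exact two-sided permutation p of 0.005 within lines, the smallest it allows, and 0.0075 adjusted over the 3 such values tested. With scaling by library size alone the rise was 51.5 RPKM and the adjusted exact permutation p was 0.060. That rise came from EW8, since the TC71 means with vehicle and doxycycline were then about equal. The rise in TC71 thus rests on the scaling factors, which were 1.01 to 1.04 in TC71 vehicle and 0.945 to 0.976 in TC71 doxycycline. FLI1 made up 3.21%, 2.78% and 2.69% of that sum in EW8 vehicle and 1.64%, 1.81% and 1.87% in EW8 doxycycline. In TC71 it made up 5.50%, 5.01% and 4.57% with vehicle and 4.42%, 4.07% and 4.20% with doxycycline. The share was lower with doxycycline in both lines without overlap, by 1.12 percentage points in EW8 and 0.80 in TC71 (mean −0.96, exact permutation p = 0.005, adjusted 0.0075).

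**Figure D3:**
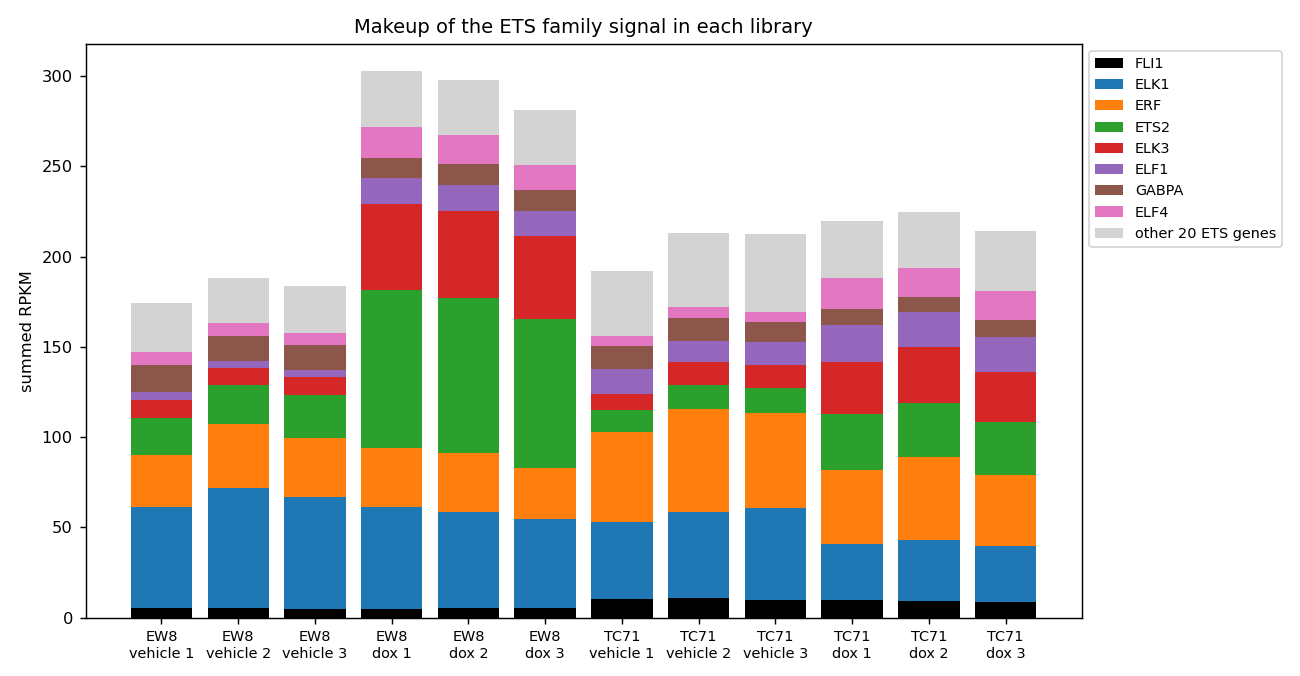
Summed RPKM of the 28 ETS genes in each library, stacked (linear axis from 0), with 8 genes shown by color and the other 20 in grey. The black FLI1 segment stays near 5 RPKM in EW8 while ETS2 (green) and ELK3 (red) widen, so the EW8 doxycycline bars reach 281 to 303 RPKM.

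FLI1 stood at 18.4%, 16.2% and 16.6% of the EWSR1 level per length in EW8 vehicle and at 17.4%, 18.4% and 20.1% in EW8 doxycycline. The TC71 vehicle libraries gave 22.9%, 20.6% and 18.8%, and the TC71 doxycycline libraries 23.9%, 22.3% and 24.8%. The conditions overlapped in both lines. The mean log2 ratio of FLI1 to EWSR1 was 0.16 higher with doxycycline (0.13 in EW8 and 0.19 in TC71, exact permutation p = 0.030, adjusted 0.030), a call lost in 7 of the 12 analyses that left out 1 library. Those were the analyses without EW8 vehicle replicate 2 or 3, EW8 doxycycline replicate 3, TC71 vehicle replicate 2 or 3, or TC71 doxycycline replicate 1 or 3 (0.12 to 0.16, adjusted exact permutation p = 0.050 to 0.070).

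**Figure D4:**
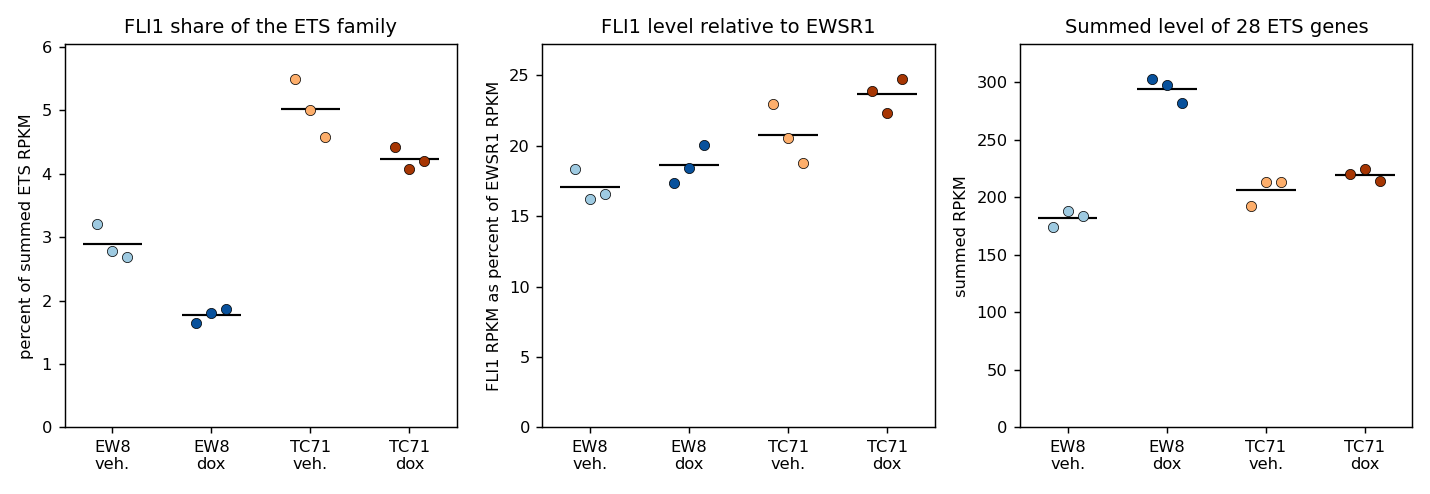
FLI1 as a percentage of the summed ETS RPKM, FLI1 RPKM as a percentage of EWSR1 RPKM, and the summed RPKM of 28 ETS genes, in each library (points) with group means (lines), all on linear axes from 0. The FLI1 share is lower with doxycycline in both lines, from 2.69% to 3.21% down to 1.64% to 1.87% in EW8, while the ratio to EWSR1 overlaps between conditions.

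Among the other 19 ETS genes, 12 had enough counts to test. In EW8 5 rose and 4 fell, in TC71 4 rose and 4 fell, with a median log2 fold change of −0.055 and −0.069. Of all genes tested 21.9% rose and 22% fell in EW8, and 25.1% and 20.4% in TC71. ELF1, a factor of blood cells and many other tissues, rose from 20.5, 17.2 and 16.5 CPM to 63.1, 62.8 and 61.8 CPM in EW8 (log2 1.80) and from 59.2, 50.1 and 56.4 CPM to 88.0, 85.7 and 84.4 CPM in TC71 (0.64). ELF4, its close relative, rose in both lines, by 1.16 and 1.51. ETV3L, at 5 to 70 counts, rose in EW8 (1.60, adjusted p = 0.0173, edgeR) and stood at −0.080 in TC71 (adjusted p = 0.930). FEV, a neuronal ETS gene and a rare fusion partner of EWSR1, fell from 2.07, 1.18 and 1.62 CPM to 1.29, 0.99 and 0.78 CPM in EW8 (−0.65, groups overlapping) and from 25.3, 19.0 and 22.2 CPM to 7.13, 5.83 and 7.05 CPM in TC71 (−1.73). ELK1, the ternary complex factor closest to ELK3 in role and the most abundant of the 19 per length averaged over the libraries, went the other way from ELK3: it fell in both lines, with log2 fold changes of −0.22 in EW8 (adjusted p = 0.0260) and −0.55 in TC71 (adjusted p = 9.14e-06). The mean level of ELK1 went from 61.6 to 52.9 RPKM in EW8 and from 46.9 to 31.9 in TC71. Its mean share of the summed ETS level went from 33.8% to 17.97% in EW8 and from 22.7% to 14.5% in TC71. That of ETS2 went from 12.1% to 29% and from 6.39% to 13.7%. In EW8 the ELK1 share fell further than ELK1 itself, since the mean sum rose from 182 to 294 RPKM.

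Of 12 genes listed as regulators or partners of ETS factors, 5 rose and 2 fell in EW8, and 6 rose and 0 fell in TC71, against 21.9% and 22% of all genes in EW8 and 25.1% and 20.4% in TC71. RUNX1, which binds DNA with ETS1, had 2, 2 and 0 counts in EW8 vehicle and 181, 131 and 124 in EW8 doxycycline, and 0 in TC71 vehicle and 142, 120 and 94 in TC71 doxycycline. It was at least 21.3-fold higher with doxycycline in EW8, and in TC71 it was at least 24.2-fold higher. ATXN1, which works with CIC to repress the PEA3 group, rose by a log2 of 2.16 and 1.86. CIC itself stood at 0.015 and −0.040, neither passing (adjusted p = 0.890 and 0.688, edgeR). DUSP6, a phosphatase that restrains ERK and is a common readout of its activity, rose by 1.33 and 1.13. MRTFA, which competes with the ternary complex factors for serum response factor, rose by 0.55 and 1.01. DET1, part of the ligase that degrades ETS factors, fell in EW8 at 0 to 44 counts (−1.98, adjusted p = 0.0370) and stood at −0.67 in TC71 (adjusted p = 0.488).

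**Figure D5:**
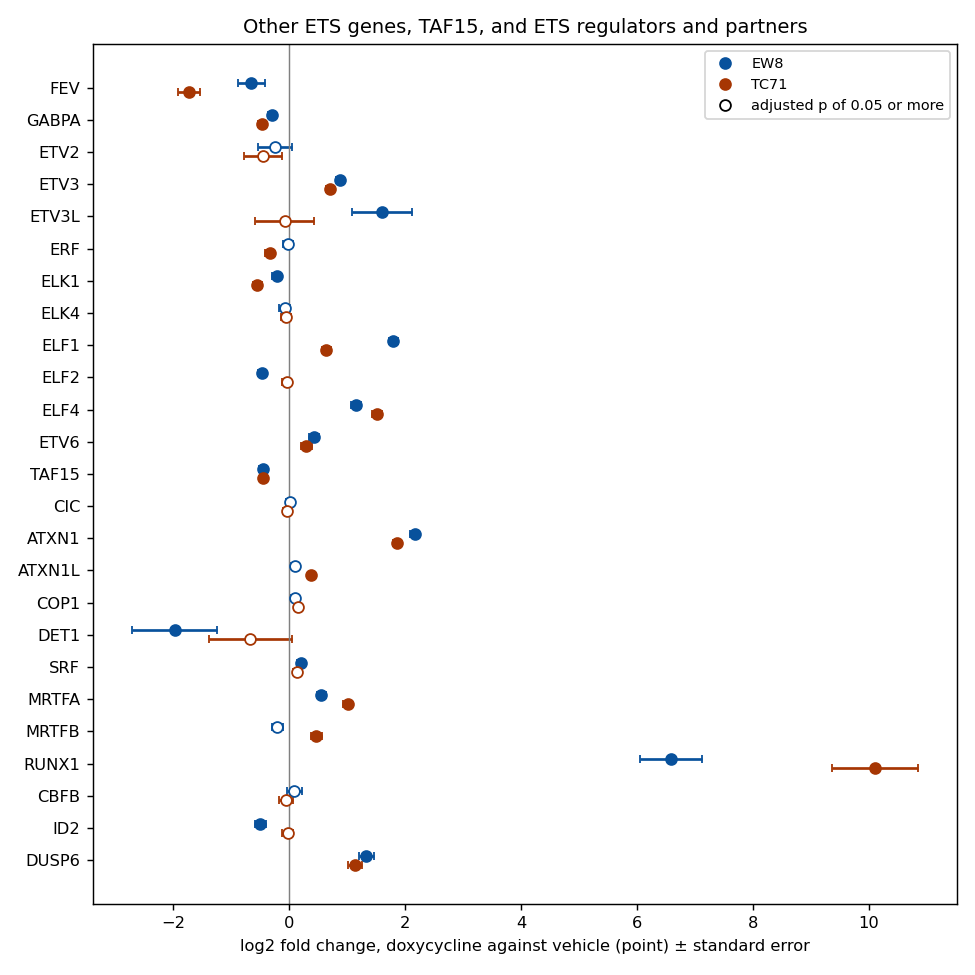
Log2 fold change of doxycycline against vehicle with its standard error for the 12 other ETS genes tested, TAF15, and the 12 listed regulators and partners, in EW8 (blue) and TC71 (brown), open where the adjusted p was 0.05 or more. ELF1, ELF4, ETV3, ATXN1, RUNX1 and DUSP6 lie right of 0 in both lines, FEV, ELK1, GABPA and TAF15 lie left; RUNX1 is fitted against vehicle at or under 6 counts.

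Of 15 listed genes that EWS-FLI1 is known to activate, 11 fell and 2 rose in EW8, and 10 fell and 3 rose in TC71, where 22% of all genes fell and 21.9% rose in EW8, and 20.4% and 25.1% in TC71. The medians were −0.54 and −0.36, beside −0.031 and 0 over all genes. LIPI, a phospholipase characteristic of Ewing tumors, fell in both lines (−1.40 and −0.65), as did IL1RAP, a surface receptor chain (−1.04 and −1.07). GLI1, the Hedgehog effector, fell in TC71 (−1.30) and stood at −0.28 in EW8 (adjusted p = 0.0547, edgeR). Those that rose were CAV1 (0.35 and 0.61) and JAK1 (0.14 and 0.16) in both lines and NR0B1 in TC71 (0.38). NR0B1 stood at 0.14 in EW8 (adjusted p = 0.199, edgeR). Of 6 listed genes known to be repressed by the fusion, 5 were tested, and 3 rose and 1 fell in each line. Of these, the TGF-beta receptor TGFBR2 (2.52 and 3.40), the cell cycle inhibitor CDKN1A (3.20 and 1.71) and PHLDA1 (6.96 and 6.07) rose. FOXO1 fell (−0.54 and −0.41).

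Before induction TC71 held more FLI1 and EWSR1 than EW8, by a log2 of 0.98 ± 0.07 (adjusted p = 5.06e-10, edgeR) and 0.70 ± 0.06 (adjusted p = 2.47e-08). Of the 8 members that could be compared between lines with vehicle, 4 were higher in TC71 (FLI1, EWSR1, ETV4 and ETV5) and 3 were lower (ERG, ETS2 and ETV1), where 28.2% and 33.5% of all genes were (beyond a log2 of 1, 2 and 1 members, against 11.6% and 18.9%). ETV5 differed most among those above the floor in both lines, by 1.85 ± 0.23 (adjusted p = 1.35e-06). The ERG call (0, 0 and 10 counts against 0, 0 and 0) rests on EW8 vehicle replicate 3, without which there was no count in either group, and was lost without TC71 vehicle replicate 2 or 3 (adjusted p = 0.0666 and 0.0595). ETV4 in TC71 was at least 1.84-fold above EW8, a value that rests on the 32 counts of TC71 vehicle replicate 2: the other libraries of both vehicle groups had 6 counts or fewer, so that without it there is no fold to give. The call was also lost in 4 of 16 alternatives, 2 of them without EW8 vehicle replicate 1 or 2 (adjusted p = 0.0797 and 0.0812). ELK3, at 0.22 ± 0.09 (adjusted p = 0.0533), passed in 8 of 20 alternatives, among them without TC71 vehicle replicate 1 (0.47, adjusted p = 2.02e-07) and without EW8 doxycycline replicate 1 or 2 (0.31 each). With doxycycline FLI1, EWSR1 and ETV5 remained higher in TC71 and ETS1, ETS2 and ELK3 were lower, 3 each way of 9 tested, where 30.2% and 32.3% of all genes were (beyond a log2 of 1, 1 and 2 members, against 12.6% and 18.4%). The log2 difference was then −1.51 ± 0.06 for ETS2 (adjusted p = 5.60e-13) and −0.69 ± 0.09 for ELK3 (adjusted p = 2.61e-06). The responses themselves differed for 3 of the 8 members compared, ETV1 higher and ETS2 and ELK3 lower in TC71, where 12.2% and 7.07% of all genes differed in those directions. With all libraries none of the 3 differed by a log2 beyond 1, against 4.18% and 2.87% of all genes. Without TC71 vehicle replicate 1 ELK3 (−1.18) and ETV5 (−1.19) did.

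The genes whose profile over the 12 libraries came closest to each of these members were found by the root mean square difference of centred log2 CPM, a description with no test. B4GALT3 (0.061), CCNY (0.069) and GTPBP4 (0.075) lay closest to FLI1. IFI44 (0.13), RBPMS (0.16) and SMIM3 (0.18) lay closest to ETS2, and CEMIP2 (0.19), TNFRSF10B (0.21) and DTX3L (0.21) to ELK3. LINC00520 (0.36), PLAU (0.51), which encodes urokinase, and ENSG00000253227 (0.55) lay closest to ETS1. RCAN2 (0.37), LINC02228 (0.54) and ACSL5 (0.55) lay closest to ERG.

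Counting was done without strand, so reads over exons shared with a gene on the other strand cannot be assigned. The shared bases were 2.04% and 1.98% of FLI1's exons (with ENSG00000245008 and SENCR), 1.17% of EWSR1's, 1.89% of ETV4's, 2.83% of ETV5's (with DGKG, on the same strand), 4.50% of ELK3's and 9.23% of ELF3's. ETS1, ETS2, ERG and ETV1 shared no exon bases with another gene.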

How the data were processed

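Poly(A) RNA of the 12 libraries was sequenced as stranded, paired reads. The authors aligned them with STAR to GRCh38 and deposited whole-number counts per gene made with featureCounts 2.0.1 on GENCODE 29 exons. Per the file headers no paired, strand, multi-mapping or overlap option was set, so each mate counted separately. No normalization had been applied. Symbols were matched for 58207 of 58721 genes (99.1%).

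Counts were filtered with filterByExpr (21013 genes, holding 99.95% of counts), scaled by trimmed mean of M-values (TMM) and tested with edgeR 4.0.16 quasi-likelihood in R 4.3.3, all 12 libraries in 1 fit with 4 group levels and Benjamini-Hochberg adjustment over all genes tested. Changes are calls at an adjusted p below 0.05. CPM are TMM-scaled, and RPKM divide them by exon length. The FLI1 share, the FLI1 to EWSR1 ratio and the summed ETS level were compared by an exact two-sided permutation of conditions within lines (400 arrangements). No fold was given where both groups were at or under 6 counts. The edgeR test of doxycycline within lines was checked on simulated counts, with known folds in 200 genes of EW8 doxycycline and the same spread for every gene. The changed genes were all above 1 CPM on average, so the check does not cover changes of genes near the floor. The tests between lines were not checked in this way, nor was the permutation test. DESeq2 1.42.0, other scalings, filters, halved counts, single lines, a replicate block and leaving out each library were the alternatives. Counts were too few for a precise size for ERG, ETV4 and ELF3 and, with vehicle, ETS1 and RUNX1, and counting floors cover counting error only.

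The members and lists were chosen with earlier results of these data known. Named were the members, JUN and FOS, list genes past an adjusted p of 0.05 and an absolute log2 fold change of 1 with doxycycline (at most 8 per list), the most abundant other ETS gene and the 3 nearest profiles. TAF15, CIC, GABPA, ETV3, PECAM1, TIE1, TEK, CDH5, VWF, ESRP1, ITGAM, CAV1, JAK1, NR0B1 and FOXO1 were added after their values were seen. A result on 1 listed gene is not reported here. 0 columns of other samples were present.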

Additional observations from a re-analysis of the deposited data

Results flagged for a closer look

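The response to doxycycline differed between TC71 and EW8 by edgeR's test of the difference itself (adjusted p below 0.05, log2, TC71 minus EW8) for 3 members: ETS2 (−0.77), ELK3 (−0.91) and ETV1 (0.52). Among the other ETS genes named it differed for FEV (−1.08), ELK1 (−0.33), ELF1 (−1.16) and ELF4 (0.36). Among regulators it differed for ATXN1 (−0.31) and MRTFA (0.45), and among genes known to respond to EWS-FLI1 for GLI1 (−1.02), LIPI (0.75), TGFBR2 (0.88) and CDKN1A (−1.49). The induced genes differed too, JUN by 0.73 and FOS by 2.21, and FOS started from a lower level in TC71. The groups hold 3 libraries each, which is too few to test a single library for standing apart.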

How the results depend on the processing

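Under a log2 fold change beyond 1, the members called lower in TC71 fell from 3 to 0, those with a higher or lower response in TC71 than EW8 from 1 and 2 to 0 and 0, those higher and lower in TC71 with vehicle from 4 and 3 to 2 and 1, and those higher with doxycycline from 3 to 1. Scaling by library size alone gave 2 lower in EW8, EWSR1 being added, and a summed ETS rise of 51.5 RPKM (adjusted exact permutation p = 0.060). That summed rise came from EW8, with the TC71 means about equal. Requiring 10 counts in every library left 6 members to test, and 2 higher in each line. With no filter, and with halved counts, 5 members were lower in TC71 with doxycycline, against 3. Leaving out 1 library at a time gave 0 to 1 members with a higher and 2 to 4 with a lower response in TC71 (4 without TC71 vehicle replicate 1), 3 to 5 lower in TC71 with doxycycline (5 without EW8 vehicle replicate 3), and a log2 ratio of FLI1 to EWSR1 that was 0.12 to 0.20 higher with doxycycline (adjusted exact permutation p up to 0.070). FLI1 in EW8 turned to the other sign, never passing, with at least 10 counts in every library (0.051), with only the EW8 libraries (0.035), with halved counts (0.037) and without 1 of 6 single libraries (over all 12, −0.016 to 0.068). ETV4 in TC71 ranged from −0.017 to 1.51 over single left-out libraries. Where not stated, the cause was not tested. Replicate numbers did not pair the libraries (correlations of same-numbered deviations within lines of −0.028 to 0.0098, and 1 of 6 matched its own number best). With the replicate block 5 members rose and 1 fell in EW8 and 4 rose and 3 fell in TC71, as without it, and with vehicle 3 were higher and 2 lower in TC71, since the calls of ERG (−4.63, adjusted p = 0.0536, edgeR) and ETV4 (1.92, adjusted p = 0.0627) were lost. Depth limits ETV4, ERG and ELF3, at up to 32, 75 and 9 counts per library, and ETS1 with vehicle, at up to 2.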
